A study of Mus musculus with 4 samples.

Results

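The expression of 9 retinoic acid genes, called members below, was measured in embryonic mouse cortex: the synthesis and uptake genes Aldh1a2, Rdh10 and Stra6, the binding and breakdown genes Crabp1, Crabp2 and Cyp26b1, and the receptor genes Rara, Rarb and Rxra. They were chosen by function, as the rows carrying these gene symbols, and all 9 were present among the 19968 genes that both deposited tables list. RNA sequencing libraries came from C57BL/6 cerebral cortex at embryonic day 15 by the protocol, while the design text names telencephalic tissue and replicates in triplicate. The Prdm16cKO group carries a conditional deletion of Prdm16, a zinc-finger transcriptional regulator, and the controls, Prdm16fl/fl, carry floxed Prdm16 alleles with no deletion named. Neither the Cre line nor the deleted exon is given in the sources used here. The labels list 2 samples per group, while the tables hold 2 libraries of the knockout group (cKO 1 and cKO 2, numbers that are names only) and 1 of the control group (floxed). A further floxed sample that the labels list was not analysed here. One title per group holds the unexplained word Blood, and which library that sample gave is not known.

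Retinoic acid is made from retinol in successive oxidations. STRA6 is the cell-surface receptor that takes up retinol from its plasma carrier, RDH10 oxidises retinol to retinaldehyde, and ALDH1A2 oxidises retinaldehyde to retinoic acid. The acid binds CRABP proteins in the cytoplasm, is broken down by CYP26 enzymes, and acts through RAR and RXR nuclear receptors that pair on DNA. In the embryonic forebrain the meninges, the membranes around the brain, are a known source of retinoic acid, and neural cells carry receptors. The contrast of interest is therefore between genes of synthesis, of which the meninges are a source, and receptor genes, which neural cells carry. The groups are named by function, and bulk libraries do not show which cells expressed each member.

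The depth of cKO 1 was 19518174 counts, of cKO 2 18581791 and of floxed 17841685, and levels are given as CPM, counts scaled to these totals. Unless said otherwise, values stand in the order cKO 1, cKO 2, floxed. The cKO libraries did not resemble each other in non-neural genes. Counts of Prdm16 itself were 676, 447 and 538, which is 34.6, 24.1 and 30.2 CPM (edgeR log2 fold -0.026, SE 0.25, adjusted p = 1). The level in cKO 1 goes against its label, although a total over all exons checks a partial deletion only in part, so directions below refer to libraries labelled cKO. The 15 markers of meninges and fibroblasts summed to 912 CPM in cKO 1, 53.9 in cKO 2 and 574 in floxed, and none was at 0 in any library. Neural markers were abundant in all 3 libraries: 8 genes of cortical projection neurons summed to 7211, 7273 and 7495 CPM. With 1 floxed library, errors can be given for the cKO group only, and nothing in the sources says that libraries are from different animals. A p-value here reflects library-to-library spread, which may be technical. Error intervals on ratios of counts (95%, exact) cover counting error alone.

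The start region of Rarb is shown because it was the only RefSeq promoter window of a member that held a retinoic acid response repeat, and that of Aldh1a2 because its level differed most between libraries. RAR and RXR bind direct repeats of a 6-letter unit. The unit AGGTCA was searched together with variant unit AGTTCA, variant unit GGGTCA and variant unit GGTTCA, in any combination, on both strands, with 1, 2 or 5 bases between them. RefSeq (GRCm38.p6) gave windows of 300 bases, from 250 before to 50 after an annotated start, for 7 of 9 members. These were 14 windows in all, some of which overlap. The 250 bases before the start are printed 5′ to 3′ on the gene's strand, with the repeat units in capitals (Rarb: minus strand, chr14:16575477-16575726; Aldh1a2: plus strand, chr9:71215539-71215788).
Rarb: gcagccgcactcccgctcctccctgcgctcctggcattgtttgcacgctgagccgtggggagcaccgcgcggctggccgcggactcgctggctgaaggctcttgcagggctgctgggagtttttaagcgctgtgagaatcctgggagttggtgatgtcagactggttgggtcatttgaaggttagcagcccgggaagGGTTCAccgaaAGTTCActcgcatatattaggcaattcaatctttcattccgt
Aldh1a2: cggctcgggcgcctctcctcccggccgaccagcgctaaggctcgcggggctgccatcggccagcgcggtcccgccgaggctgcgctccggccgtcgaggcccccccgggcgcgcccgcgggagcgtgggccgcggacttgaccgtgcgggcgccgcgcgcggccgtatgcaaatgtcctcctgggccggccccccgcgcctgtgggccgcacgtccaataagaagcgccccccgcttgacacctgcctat

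The repeat of Rarb begins 53 bases before the annotated start and has 5 bases between its units, which do not overlap another repeat of the search. Of 32851 mouse promoter windows of the same length, 32 held a repeat with this spacing (0.0974%), and 0.588% held any of the repeats. A single unit is common: 43.7% of windows had at least 1, as did 5 of the 14 member windows. The Rarb window held 3 units, the repeat included, and the Aldh1a2 window none. The match describes these letters and does not show that a receptor was bound.

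**Figure D1:**
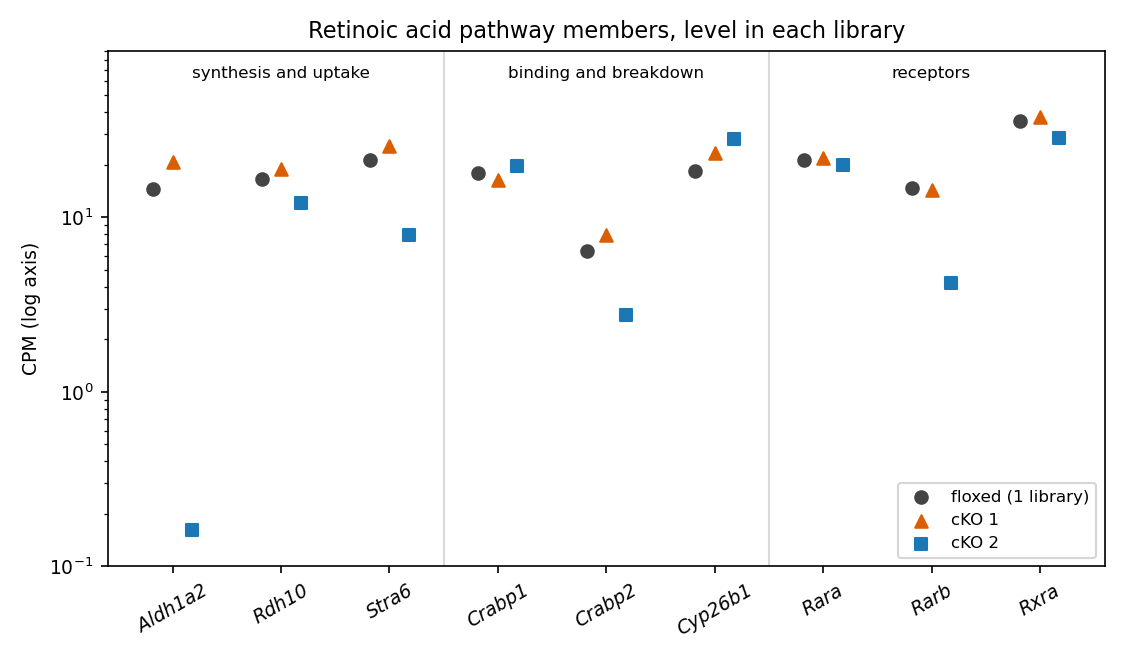
Level of each of the 9 members in CPM (log axis) in the floxed library (circles) and in cKO 1 (triangles) and cKO 2 (squares). Aldh1a2 stands at 0.161 CPM in cKO 2 against 14.6 in floxed, and Rarb at 4.20 against 14.6.

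Synthesis and uptake genes stood above floxed in cKO 1 and below it in cKO 2, and Aldh1a2 was nearly missing from cKO 2. Aldh1a2 (ENSMUSG00000013584, GRCm38 chromosome 9, 71215789 to 71296243, plus strand) gave 405, 3 and 260 counts in cKO 1, cKO 2 and floxed, which is 20.7, 0.161 and 14.6 CPM. The floxed value lies between the cKO values, so the groups overlap. Its ratio to floxed was 1.42 in cKO 1 (interval 1.22 to 1.67) and 0.0111 in cKO 2 (0.00227 to 0.0327). The cKO mean of 10.5 ± 14.6 CPM (SD, n = 2) describes neither library, and the log2 fold fitted by edgeR was -0.48 with an SE of 1.82 (adjusted p = 1). Among 16725 genes tested, Slc6a13 and Slc22a6 were the 2 with a lower ratio in cKO 2, where a count of 0 was set at 3 counts. Both are transporter genes on the meninges list, and each had 1 count in cKO 2.

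Stra6 (ENSMUSG00000032327, chromosome 9, 58063788 to 58153996, plus strand) had 25.5 CPM in cKO 1, 7.91 in cKO 2 and 21.4 in floxed. The same order as in Aldh1a2 came with a smaller span, with ratios of 1.19 (1.04 to 1.37) and 0.370 (0.304 to 0.449). The log2 fold in edgeR was -0.35 (SE 0.65, adjusted p = 1). Rdh10 (ENSMUSG00000025921, chromosome 1, 16105774 to 16133734, plus strand), whose enzyme acts a step before ALDH1A2, had 18.8, 12.1 and 16.6 CPM. In cKO 1 its ratio of 1.13 had an interval that includes 1 (0.967 to 1.32), and in cKO 2 it was 0.727 (0.609 to 0.868), with a log2 fold in edgeR of -0.094 (SE 0.31, adjusted p = 1). Synthesis genes therefore spanned a wide range in cKO 2. In that library the length-scaled level of Aldh1a2 was 0.0245 of that of Rdh10, against 2.03 in cKO 1 and 1.61 in floxed.

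**Figure D2:**
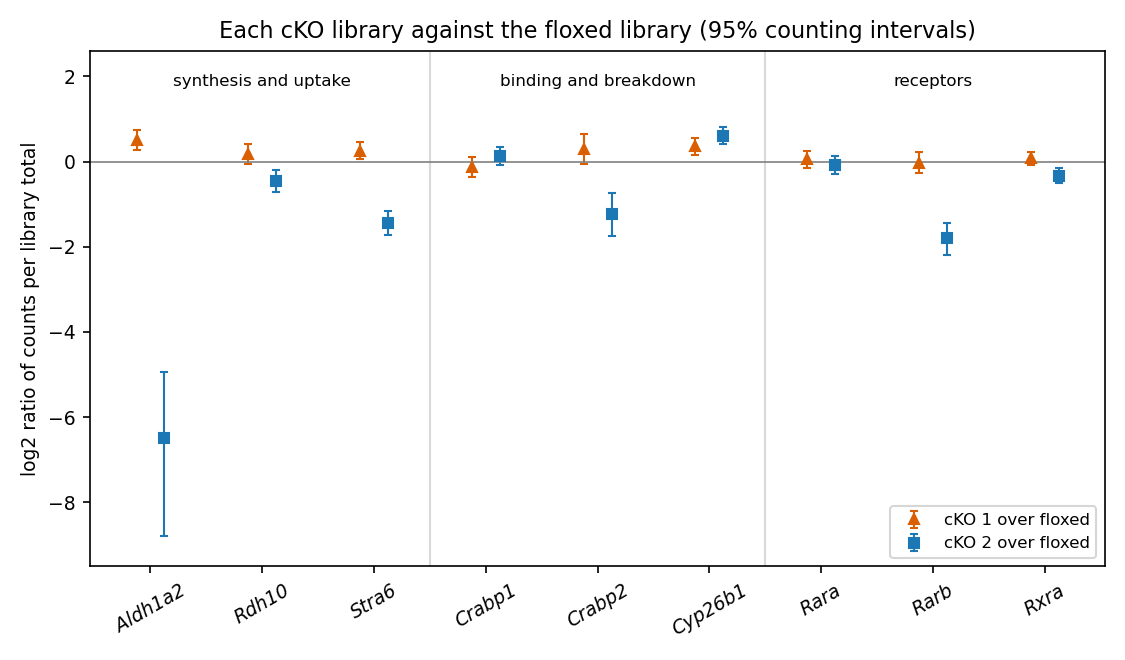
Log2 ratio of counts per library total, each cKO library over the floxed library, for the 9 members, with 95% exact counting intervals as bars. Triangles (cKO 1) stay between -0.13 and 0.51, while squares (cKO 2) run from -6.50 for Aldh1a2 to 0.61 for Cyp26b1.

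Of the binding protein genes, Crabp2 was low in cKO 2 and Crabp1 was not. Crabp2 (ENSMUSG00000004885, chromosome 3, 87948666 to 87953376, plus strand) encodes the protein that passes retinoic acid to nuclear receptors. It gave 154, 51 and 115 counts, which is 7.89, 2.74 and 6.45 CPM. The cKO 2 library was the low one, at 0.426 of floxed (0.300 to 0.597), and the cKO 1 ratio of 1.22 had an interval of 0.955 to 1.57. The log2 fold in edgeR was -0.27 (SE 0.64, adjusted p = 1). Crabp1 (ENSMUSG00000032291, chromosome 9, 54764748 to 54773110, plus strand), its close relative, had 16.4, 19.6 and 17.9 CPM. Its ratios were 0.917 (0.783 to 1.07) and 1.10 (0.940 to 1.28), both with intervals that include 1, and edgeR gave it a log2 fold of 0.028 (SE 0.23, adjusted p = 1). Per length, Crabp2 stood at 0.291 of Crabp1 in cKO 1, 0.0848 in cKO 2 and 0.218 in floxed.

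Cyp26b1 was the only member higher than floxed beyond counting error in both libraries labelled cKO. The gene (ENSMUSG00000063415, chromosome 6, 84571414 to 84593908, minus strand) encodes a cytochrome P450 that inactivates retinoic acid. It gave 457, 520 and 327 counts, which is 23.4, 28.0 and 18.3 CPM. Both cKO values lie above floxed, at 1.28 (1.11 to 1.48) and 1.53 (1.33 to 1.76) times its level. The log2 fold was 0.51 (SE 0.22), with an unadjusted edgeR p of 0.0726 and an adjusted p of 1, on a cKO mean of 25.7 ± 3.23 CPM (SD, n = 2). Among all genes tested, 5.16% were higher in both libraries beyond counting error, and these comparisons share the floxed library.

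Of the 3 receptor members, Rara differed least from floxed and Rarb most in cKO 2, while in cKO 1 none differed beyond counting error. Rara (ENSMUSG00000037992, chromosome 11, 98927818 to 98974942, plus strand) gave 429, 372 and 379 counts, which is 22.0, 20.0 and 21.2 CPM. Its ratios were 1.03 (0.899 to 1.19) and 0.942 (0.815 to 1.09), and the log2 fold in edgeR was -0.00014 (SE 0.19, adjusted p = 1). Counting error thus covers the differences between these libraries for Rara. Rxra (ENSMUSG00000015846, chromosome 2, 27676440 to 27762957, plus strand), the partner receptor, had 37.6, 28.4 and 35.7 CPM, with ratios of 1.05 (0.945 to 1.17) and 0.796 (0.708 to 0.895). Its log2 fold in edgeR was -0.10 (SE 0.20, adjusted p = 1).

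Rarb (ENSMUSG00000017491, chromosome 14, 16430842 to 16575472, minus strand) gave 281, 78 and 261 counts, which is 14.4, 4.20 and 14.6 CPM. The libraries cKO 1 and floxed did not differ beyond counting error (ratio 0.984, 0.829 to 1.17), and cKO 2 stood apart at 0.287 (0.220 to 0.371). Both cKO values lie below floxed, and the log2 fold in edgeR was -0.65 (SE 0.69, adjusted p = 1). Without cKO 2 the log2 ratio is -0.023. In GENCODE M21, 34.1% of the Rarb exon bases are shared with Top2b on the other strand and 4.31% with the antisense gene Gm48162. The library kit does not mark strand, so reads there cannot be assigned with certainty. In the deposited positions Rarb and Top2b do not overlap, and Top2b had 314, 276 and 273 CPM in cKO 1, cKO 2 and floxed. Gm48162 is not among the genes analysed here.

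**Figure D3:**
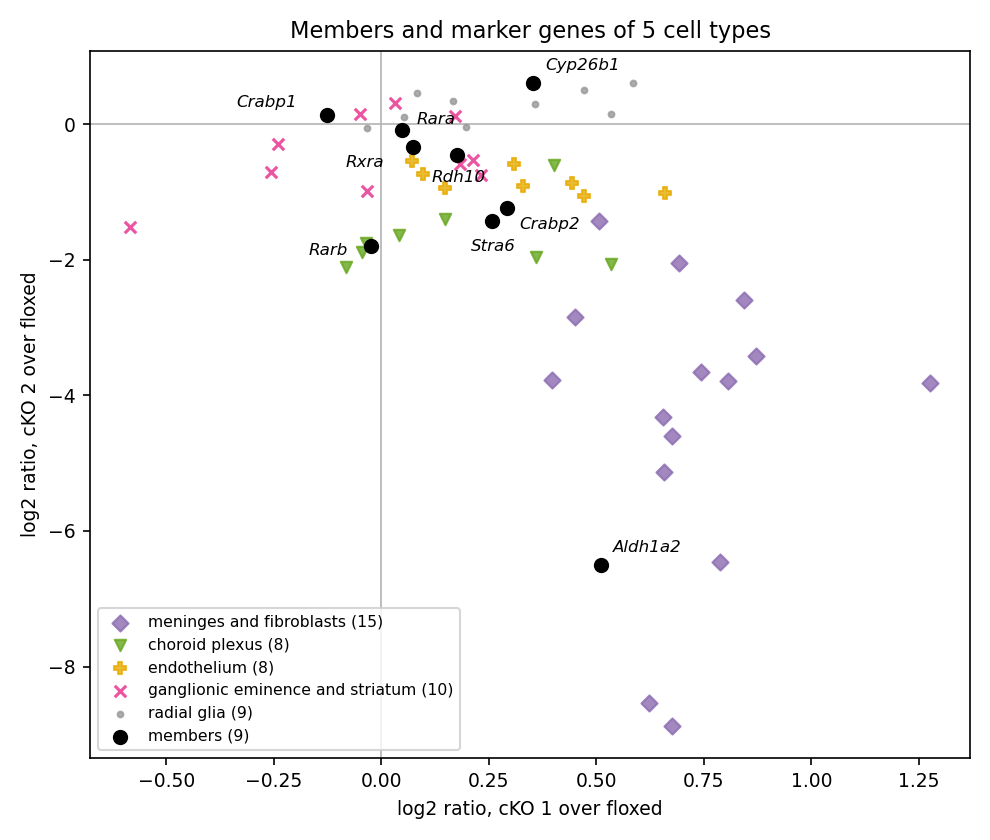
Log2 ratio over floxed in cKO 1 (horizontal axis) and cKO 2 (vertical axis) for the 9 members (black) and for tested marker genes of 5 cell types, with the number of genes in the legend; both axes share the floxed library. Aldh1a2 lies at 0.51 and -6.50, within the spread of the meninges markers, while Rara lies at 0.049 and -0.086.

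The contrast between synthesis and receptors was read from the ratios to floxed. Synthesis and uptake genes had a median log2 ratio of 0.26 in cKO 1 and -1.43 in cKO 2, and receptor genes of 0.049 and -0.33. Over all 16725 genes tested the medians were 0.013 and -0.043. All 3 synthesis genes were lower than floxed beyond counting error in cKO 2, as were the receptor genes Rarb and Rxra. The ratio of Rarb lay below those of Stra6 and Rdh10, so the gene groups did not separate in that library. In cKO 1, Aldh1a2 and Stra6 were higher beyond counting error and none of the 3 receptor members was. Of 4 other receptor genes, 2 were higher there, among them Rarg at 1.26 (1.09 to 1.46). Each median of 3 genes is the value of 1 gene, and the difference between the groups was not tested.

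Counts over all members were set beside the same counts over all genes tested. None of the 9 passed edgeR's test at an adjusted p under 0.05, nor did any of the 16725 genes (0%, with 217 at an unadjusted p under 0.05, and 5 genes called by DESeq2, none of them a member). Beyond counting error, cKO 1 was above floxed in 3 of 9 members, against 17.8% of all genes, and below it in 0, against 16.0%. No member differed by over 2-fold in cKO 1, where 2.58% of genes were higher and 2.16% lower by that much. The cKO 2 library was below floxed in 6 of 9, against 24.5%, and above it in 1, against 16.1%. The 4 members lower by over 2-fold in cKO 2 were Aldh1a2, Stra6, Crabp2 and Rarb, against 7.78% of all genes, and none was higher by over 2-fold, against 1.97%. Aldh1a2 and Stra6 were above floxed in cKO 1 and below it in cKO 2, each beyond counting error, as were 3.67% of genes. No member was below floxed beyond counting error in both, as were 7.52% of genes. Counting error aside, floxed lay between the cKO libraries for 7 of 9 members and for 40.5% of all genes. Of these 7, 6 stood above floxed in cKO 1 and below it in cKO 2 (24.7% of genes), and Crabp1 was the reverse (15.8%). Cyp26b1 was above floxed in both (27.7%) and Rarb below it in both (31.8%). Counts in 9 genes chosen by function remain small numbers, and no test was made on them.

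Comparing the cKO libraries with each other needs no control library. Aldh1a2 in cKO 2 was at 0.00778 of its level in cKO 1 (0.00160 to 0.0229), Rarb at 0.292 (0.224 to 0.376), Stra6 at 0.310 (0.256 to 0.373) and Crabp2 at 0.348 (0.248 to 0.480). Rdh10 at 0.644 (0.543 to 0.762) and Rxra at 0.757 (0.675 to 0.847) were lower as well. These 6 of 9 compare with 27.3% of all genes. Crabp1 at 1.19 (1.03 to 1.39) and Cyp26b1 at 1.20 (1.05 to 1.36) were the 2 of 9 higher in cKO 2, against 17.0% of all genes. Rara, at 0.911 (0.791 to 1.05), did not differ beyond counting error. Libraries of the same label thus differed in 8 of 9 members by more than counting error.

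Marker genes of other cell types moved with several members. All 15 markers of meninges and fibroblasts stood above floxed in cKO 1 and below it in cKO 2. Over all genes tested, 24.7% did so. The markers were chosen with earlier results of these data known, so their count is no independent evidence. Their cKO 2 ratios ran from 0.00213 for Slc6a13 to 0.372 for the proteoglycan gene Bgn. Aldh1a2, at 0.0111, lay within that range, with 2 markers below it and 13 above. Stra6 and the receptor gene Rarb lay at the upper end, each with 14 below and 1 above, and the other 6 members lay above all 15. In bulk libraries, fewer cells of a type and less RNA per cell cannot be told apart.

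The 8 choroid plexus markers summed to 1131 CPM in cKO 1, 341 in cKO 2 and 1141 in floxed. Ttr made up most of each sum, at 972, 295 and 996 CPM. In cKO 1, 2 of the 8 were higher beyond counting error, against 17.8% of all genes, and 1 lower, against 16.0%. The cKO 2 ratios of the 8 markers ran from 0.232 to 0.657, a range that holds Stra6, Crabp2 and Rarb, and none was at 0. The 8 endothelial markers summed to 324, 156 and 267 CPM, with cKO 2 ratios from 0.480 to 0.684 and none at 0. Rarb is known in the developing striatum, and the 10 markers of ganglionic eminence and striatum summed to 208, 168 and 217 CPM, with none at 0. Their cKO 2 ratios ran from 0.349 for Tac1 to 1.25 for Penk, all above that of Rarb. Border macrophage and microglia markers summed to 115, 25.1 and 82.2 CPM over 8 genes, with Cd163 at 0 in cKO 2. The others did not move alike, with cKO 2 ratios of 0.0151 for Lyve1, 0.0256 for F13a1 and 0.0557 for Mrc1. Csf1r stood at 0.405, Cx3cr1 at 0.603, Aif1 at 0.660 and P2ry12 at 0.776. The intervals of Aif1 (0.365 to 1.17) and P2ry12 (0.547 to 1.09) include 1. The part of these cell types in the differences of the members was not tested.

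Neural marker lists did not follow the order of Aldh1a2. The 9 radial glia markers summed to 2388 CPM in cKO 1, 2357 in cKO 2 and 1758 in floxed. Vim, Fabp7 and Nes made up most of each sum. The list's median log2 ratios were 0.20 and 0.30. In both cKO libraries, 4 of the 9 were higher beyond counting error, against 5.16% of all genes. Pax6 stood at 0.978 and 0.964 of floxed, with intervals that include 1. Of the members, Cyp26b1 was higher in both, and its relation to this cell type was not tested. Cajal-Retzius markers summed to 267, 296 and 255 CPM over 6 genes, and interneuron markers to 493, 439 and 550 over 6. Pericyte and smooth muscle genes, a non-neural list, did follow the order of Aldh1a2. They had 188, 91.6 and 158 CPM over 7 genes, with Tagln at 0 in cKO 2. The cKO 2 ratios of the 6 tested ran from 0.0167 for Acta2 to 0.806 for Cspg4. The 8 red blood cell genes had 1604, 1294 and 1758 CPM.

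**Figure D4:**
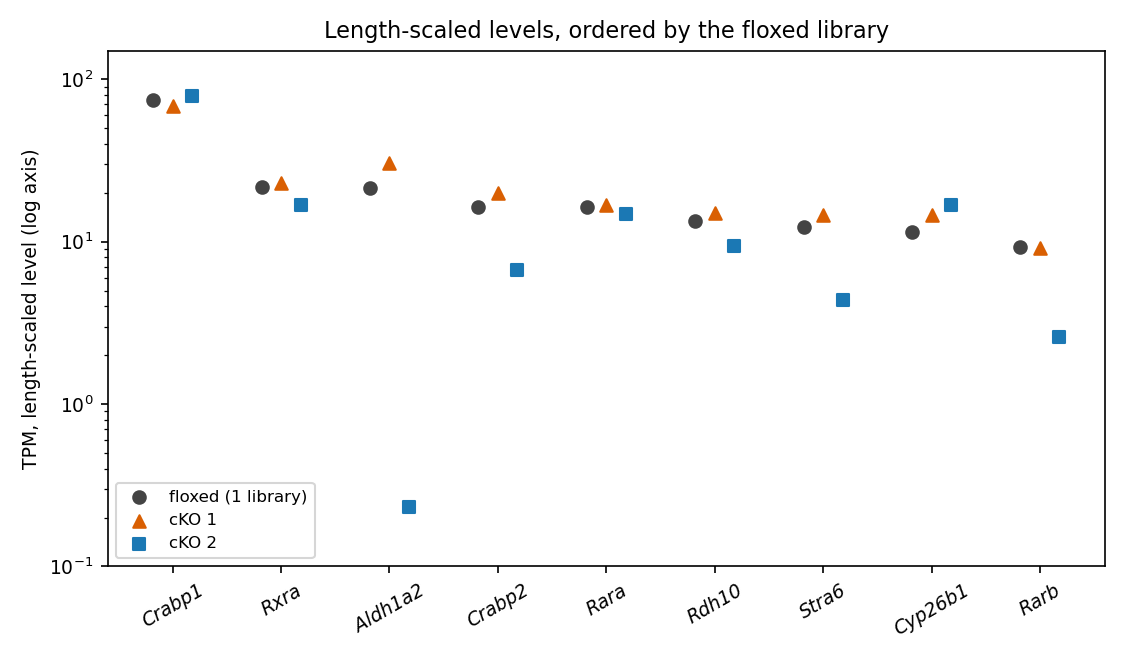
Length-scaled level (TPM, log axis) of the 9 members in each library, ordered from left to right by the floxed library. Crabp1 is the highest in all 3 libraries, at 68.2 to 79.2 TPM, and Aldh1a2 goes from 21.5 TPM in floxed to 0.231 in cKO 2.

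Levels of different genes were compared per exon length, as TPM, counts per exon length scaled to a fixed sum per library, with GENCODE M21 lengths. In floxed, Crabp1 had 74.8 TPM, Rxra 21.9, Aldh1a2 21.5, Crabp2 16.3, Rara 16.3, Rdh10 13.4, Stra6 12.3, Cyp26b1 11.5 and Rarb 9.29. The Rarb level was scaled by all of its 5265 exon bases, of which 38.4% are shared with other genes. If few reads were assigned there, that level is too low, so the place of Rarb in the order is uncertain. Among the cKO libraries, Crabp1 stood apart at 73.7 ± 7.77 TPM (SD, n = 2), ahead of Rxra at 19.9 ± 4.28. From Rxra down, each neighbour in the order of the cKO means overlapped the next within its SD. Aldh1a2 was second among the 9 in cKO 1, at 30.5 TPM, and last in cKO 2, at 0.231. Cyp26b1 was eighth in floxed and in cKO 1 and second in cKO 2, at 16.9 TPM.

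The genes nearest to Aldh1a2 in their pair of log2 ratios, among 11552 other genes with a mean of at least 5 CPM, were Lum (distance 0.281), Osr1 (0.382) and Lyve1 (0.493). Lum encodes a proteoglycan of fibroblasts, and Lyve1 a hyaluronan receptor of lymphatic vessels and border macrophages. Lum had 24.5, 0.161 and 14.2 CPM in cKO 1, cKO 2 and floxed, and Osr1 had 13.1, 0.108 and 7.85 CPM. The nearest to Rara were Sik3 (0.0011), Zfp62 (0.0022) and N4bp2 (0.0034), which had ratios near 1 like many genes. The distances rest on 3 libraries that share floxed. In cKO 2, Aldh1a2 and Lum had 3 counts each and Lyve1 had 2. The order of the genes nearest to Aldh1a2 is therefore uncertain within counting error.

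Other genes of the pathway were taken from lists by function, and at most 4 of each, the most abundant, are named. Of 72 such genes 53 were in both tables and 47 passed the filter on low counts, and 0 passed edgeR's test. Beyond counting error, 9 of 47 were higher and 7 lower in cKO 1, and 6 were higher and 18 lower in cKO 2. The shares of all genes, for these and the lists below, were 17.8% and 16.0% in cKO 1. In cKO 2 they were 16.1% and 24.5%. Their median log2 ratios were 0.040 and -0.12, beside 0.013 and -0.043 for all genes.

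The 4 most abundant genes of enzymes that oxidise or reduce retinoids were close to floxed, while some less abundant ones of the list differed more. Adh5, a broad alcohol dehydrogenase, had 174 CPM in cKO 1, 177 in cKO 2 and 164 in floxed, and the retinol dehydrogenase gene Rdh11 had 34.1, 31.1 and 33.2. Rdh13 had 37.6, 33.3 and 36.4 CPM and Dhrs4 37.1, 36.5 and 34.2. Of 9 tested genes in this list, 2 were higher beyond counting error and 0 lower in cKO 1, and 2 were higher and 1 lower in cKO 2. The list's median log2 ratios were 0.12 and 0.096.

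Among genes of retinol transport and storage, Ttr was low in cKO 2. It encodes transthyretin, which carries the plasma retinol-binding protein and is a product of choroid plexus, and had 972, 295 and 996 CPM in cKO 1, cKO 2 and floxed. The retinaldehyde-binding protein gene Rlbp1 (105, 108 and 107 CPM) and the acyltransferase gene Dgat1 (54.9, 57.0 and 56.0) had ratios with intervals that include 1. Of 9 tested genes, 2 were higher and 1 lower in cKO 1, and 0 higher and 3 lower in cKO 2. Fabp5, a fatty-acid binding protein that can also carry retinoic acid, had 480, 463 and 430 CPM.

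Of the remaining receptor genes, Rxrg was low in cKO 2. It had 25.4 CPM in cKO 1, 12.4 in cKO 2 and 26.0 in floxed, with a cKO 2 ratio of 0.479 (0.407 to 0.562). Rarg had 22.3, 20.1 and 17.7 CPM, Rxrb 125, 136 and 122, and the fatty-acid receptor gene Ppard 44.3, 35.8 and 40.1. Of these 4, 2 were higher and 0 lower in cKO 1, and 1 was higher and 2 lower in cKO 2. Receptor coregulators had median log2 ratios of -0.013 and -0.13 over 17 genes, with 1 higher and 4 lower in cKO 1 and 2 higher and 7 lower in cKO 2. The deacetylase gene Hdac3 had 150, 146 and 151 CPM, the orphan receptor gene Nr2f1 228, 249 and 220, and the Polycomb methyltransferase gene Ezh2 161, 144 and 158.

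Genes known as retinoic acid targets had median log2 ratios of 0.12 in cKO 1 and -0.32 in cKO 2 over 10 tested genes. In cKO 1, 3 were higher and 2 lower beyond counting error, against 17.8% and 16.0% of all genes. In cKO 2, 0 were higher and 7 lower, against 16.1% and 24.5%. Meis2, a homeobox gene, had 362, 283 and 350 CPM in cKO 1, cKO 2 and floxed, the zinc-finger gene Tshz1 46.2, 38.0 and 46.4, and the coregulator gene Nrip1 25.4, 19.8 and 24.8. None of these genes passed edgeR's test, so the counts describe 1 library against another.

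In the authors' deposited table for cKO 1, no member was marked significant, with adjusted p-values of 7.37e-05 for Aldh1a2, 0.00401 for Cyp26b1 and 0.0321 for Stra6. In the authors' deposited table for cKO 2, Aldh1a2, Stra6, Crabp2 and Rarb were marked significant, with log2 folds of -6.50, -1.43, -1.23 and -1.80. Among the unmarked members, Cyp26b1, Rdh10 and Rxra had log2 folds of 0.61, -0.46 and -0.33 there. Members with a small adjusted p were left unmarked in both tables, so the mark does not follow the p alone. Every marked member differed from floxed by over 2-fold, and no unmarked member did in either table. The authors' p-values compare 1 library with 1 library.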

How the data were processed

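Gene counts came from 2 deposited tables, each with a cKO library beside the same floxed library. The authors deposited raw counts per gene, CPM values (counts scaled to the library total, with 0.5 in place of a count of 0), the fold as a ratio of these, its log2, and p-values of 1 library against 1 library, per the file headers and the values. Bowtie2 2.2.3, TopHat2 2.0.12, HTSeq 0.6.0 and mm9 are named, per the submitters' processing notes. Deposited positions are those of GRCm38: 8 of 9 members had the GENCODE M21 position exactly. Library totals were recovered from counts and deposited CPM, and floxed counts did not differ between the tables in any of the 19968 shared genes.

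The edgeR 4.0.16 quasi-likelihood test (R 4.3.3, TMM, minimum count 10, Benjamini-Hochberg) compared both cKO libraries with floxed over 16725 genes, with 1 residual degree of freedom. The spread comes from the cKO libraries, and floxed is assumed to vary like them. The SE is the fitted log2 fold over the square root of F. DESeq2 1.42.0 and limma-voom 3.58.1 were alternatives. Intervals are exact Clopper-Pearson (scipy 1.17.1) and were checked on simulated Poisson counts. The edgeR fit recovered known folds, as medians, from counts simulated with a smaller spread than these data have. That check therefore does not cover the test at the spread of these data. The limit that a count of 0 allows (3 counts) is 0.154, 0.161 and 0.168 CPM in cKO 1, cKO 2 and floxed. At most 4 genes per pathway list were named, by abundance, and some values are not reported here. Members and lists were chosen with earlier results of these data known.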

Additional observations from a re-analysis of the deposited data

How the results depend on the processing

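The number of genes called was 0 with TMM in edgeR, with no filter on low counts and with limma-voom. It was 1 with library totals in place of TMM, 1 with at least 1 count in every library and 5 with DESeq2, and none was a member. No member passed an adjusted p under 0.05 in any of these fits. The fitted log2 fold of Rara, -0.00014, took the other sign without a filter (0.0081), with at least 1 count in every library (0.0079), with DESeq2 (0.0033) and with limma-voom (0.00019), all far within its SE of 0.19. The fitted log2 fold of Aldh1a2 depends on the library: it was -0.48 with both, -6.50 without cKO 1 and 0.51 without cKO 2, values with no test, and -2.75 in limma-voom. Ratios to floxed kept their direction with TMM or DESeq2 size factors for all 9 members in both libraries. The control counts of the second table gave the same values. No paired analysis was possible because there is 1 floxed library, so the groups share fewer than 2 replicate numbers. At this depth the 3 counts of Aldh1a2 in cKO 2 leave its ratio uncertain from 0.00227 to 0.0327.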

Other observations

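Some pathway genes outside the naming rule, chosen here after their values were seen, spanned more than the abundant ones. Tgm2, which encodes a transglutaminase and is a known retinoic acid target, gave 232, 16 and 135 counts (cKO 1, cKO 2, floxed), with ratios of 1.57 (1.27 to 1.96) and 0.114 (0.0632 to 0.192). Aldh1a3, a further retinaldehyde dehydrogenase gene, had 73, 16 and 53 counts, with a cKO 2 ratio of 0.290 (0.155 to 0.515). Dhrs3, which encodes an enzyme that returns retinaldehyde to retinol, had 11.9, 8.93 and 7.23 CPM, with ratios of 1.64 (1.32 to 2.06) and 1.24 (0.976 to 1.57). Stra6l, a paralogue of Stra6, had 4.05, 1.88 and 4.54 CPM and a cKO 2 ratio of 0.415 (0.271 to 0.624), close to that of Stra6 (0.370).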
